A study of Mus musculus with 6 samples.

Results

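The genes described here are 9 enzymes of antioxidant defence and sugar metabolism, measured in hepatic stellate cells, pericytes of the liver that were isolated from mice and kept in culture. They were taken by symbol from the deposited exon count table, where all 9 of 9 were found among 24940 genes, each as 1 RefSeq transcript with 1 genomic copy. Of these, 6 are classical targets of the transcription factor NRF2 (Nqo1, Hmox1, Gclm, Gclc, Txnrd1 and Srxn1) and 3 encode enzymes of the pentose phosphate pathway (Pgd, Tkt and Taldo1). The cells were wild-type and came from female C57BL/6JBomTac mice, and polyadenylated RNA was sequenced. In the OCA+VIP group (n = 3 libraries), cells on day 2 after isolation were given 10 µM obeticholic acid (OCA), an agonist of the bile acid receptor FXR. In the DMSO+VIP group (n = 3 libraries), they were given the vehicle DMSO (1:1000). Both groups were given 500 nM vasoactive intestinal peptide (VIP), a neuropeptide that raises cAMP, after 3 h, and were lysed 3 h later, so the contrast is OCA against vehicle in cells that all carried VIP. Nothing in the labels ties the libraries of a group to separate animals or cultures, and the p-values measure only the spread between these libraries, which may be technical.

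NRF2, encoded by Nfe2l2, is normally bound by KEAP1 and marked for destruction by the CUL3 ubiquitin ligase. When electrophiles or oxidants modify KEAP1, NRF2 accumulates, pairs with a small MAF protein and binds antioxidant response elements, where the repressor BACH1 competes with it. Its targets make glutathione, reduce thioredoxin and quinones and break down heme, and much of that chemistry is paid for in NADPH, which the oxidative steps of the pentose phosphate pathway supply.

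The column totals were 4534359.5, 9947968 and 5804978.5 counts in OCA+VIP libraries 1 to 3 and 4574160.5, 2839106 and 3733035.5 counts in DMSO+VIP libraries 1 to 3. OCA+VIP library 2 was thus the deepest and DMSO+VIP library 2 the shallowest, and only library 1 of each group had near-equal totals. All 10 stellate cell markers on the list used for the check were detected, with a summed level of 701 to 797 CPM (a count as a share of the column total, on the usual counts-per-million scale) in OCA+VIP and 622 to 840.4 CPM in DMSO+VIP. Behind these sums, Colec11, Ngfr and Dcn were higher and Hgf and Des lower in OCA+VIP without overlap of the groups. Of all tested genes, 16.8% were higher and 13.9% lower without overlap. The other stellate cell markers overlapped. The 13 hepatocyte markers summed to 249.7 to 412 CPM in OCA+VIP and 73.7 to 85.1 CPM in DMSO+VIP, with 12 and 8 of them detected and the urea cycle enzyme gene Cps1 at 0 throughout. For 10 macrophage markers the sums were 28.3 to 42.7 CPM and 15.3 to 36.8 CPM, with C1qa, C1qb, Timd4 and Vsig4 at 0 in every library. Hepatocytes and macrophages also express NRF2 targets, and the part of these RNAs in the results was not tested.

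Of the 9 genes, 0 were called higher with OCA and 0 lower, a call being an adjusted p under 0.05 over 11286 genes (edgeR's quasi-likelihood test with Benjamini-Hochberg adjustment). Over all tested genes, 5.72% were called higher and 6.04% lower. DESeq2 likewise called 0 of the 9, and limma-voom called 1, Hmox1, lower. Unadjusted p was under 0.05 for 1 of the 9, again Hmox1, against 26.0% of all tested genes. Among the 9 genes, 6 were fitted higher and 3 lower, and their median log2 fold change was 0.08, against 0.001 for all tested genes. The groups overlapped in CPM for all 9, where 16.8% of all tested genes were higher and 13.9% lower without overlap.

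The antioxidant response element core, written TGACNNNGC and searched on both strands, was present in promoters of several of these genes, none of which passed the test, and these stretches are shown for that reason. RefSeq windows from 250 bases before to 50 bases after the start (GRCm38.p6, the build of mm10) were at hand for 7 of the 9 genes, and 4 of the 7 held the core in at least 1 window, as did 14.0% of 27025 genes. Hmox1 and Gclc are not among those 7. In the stretches below, written 5′ to 3′ on the gene's strand, capitals mark the core, which lies on the other strand in all but Pgd. That of Gclm is at chr3:122245413-122245441 (plus strand), with the core 134 to 126 bases before the start, and that of Txnrd1 at chr10:82859104-82859132 (plus strand), 92 to 84 bases before it. The core of Srxn1 (chr2:152105542-152105570, plus strand) and that of a second start of Pgd (chr4:149166061-149166089, minus strand) lie within the first transcribed bases.
Gclm: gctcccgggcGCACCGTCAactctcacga
Txnrd1: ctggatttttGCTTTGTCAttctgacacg
Srxn1: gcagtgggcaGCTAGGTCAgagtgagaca
Pgd: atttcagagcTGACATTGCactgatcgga
A match of these letters is a description of the window and not a bound site. Srxn1 was the only one of the 7 genes with the AP-1 site TGAGTCA, a related motif that 5.9% of all genes with a window hold. It had 2, at chr2:152105412-152105438 and chr2:152105469-152105495 (plus strand, capitals marking the site). The near site, read on into the bases after it, differs from the searched core only in a G for its C. That form of the core was not searched in any window.
Srxn1, far site: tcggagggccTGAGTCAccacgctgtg
Srxn1, near site: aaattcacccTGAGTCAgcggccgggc

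Hmox1, encoding heme oxygenase 1, which opens heme to biliverdin, iron and carbon monoxide, was the most abundant of the 9 genes per exon length. With 1052 ± 233 CPM per kb in OCA+VIP and 1447 ± 168 CPM per kb in DMSO+VIP (SD, n = 3 each), its level was the third of all genes in both groups. Across the 6 libraries, only the ferritin chains Ftl1 and Fth1, which store the iron that heme oxygenase releases, lay above it, and the autophagy adaptor Sqstm1, another NRF2 target, came next. Processed pseudogenes of ferritin genes are common, so the levels of these 2 are uncertain. Taldo1 followed Hmox1 among the 9, at 532 ± 108 CPM per kb in OCA+VIP and 597 ± 54.4 in DMSO+VIP. Txnrd1 had 429.98 ± 65.0 and 398 ± 33.4, Srxn1 344 ± 41.6 and 324 ± 17.2, and Pgd 336 ± 54.2 and 281 ± 9.13 CPM per kb. Levels of Gclm, Nqo1, Gclc and Tkt per kb were lower, from 202 to 84.7 in OCA+VIP and from 181 to 87.8 in DMSO+VIP. In DMSO+VIP no 2 neighbours in this order overlapped. In OCA+VIP the ranges of Taldo1 and Txnrd1, and of Txnrd1, Srxn1 and Pgd, did overlap. Even Tkt, the lowest, lay above 92.5% of the genes with a count in OCA+VIP and 93.2% in DMSO+VIP.

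**Figure D1:**
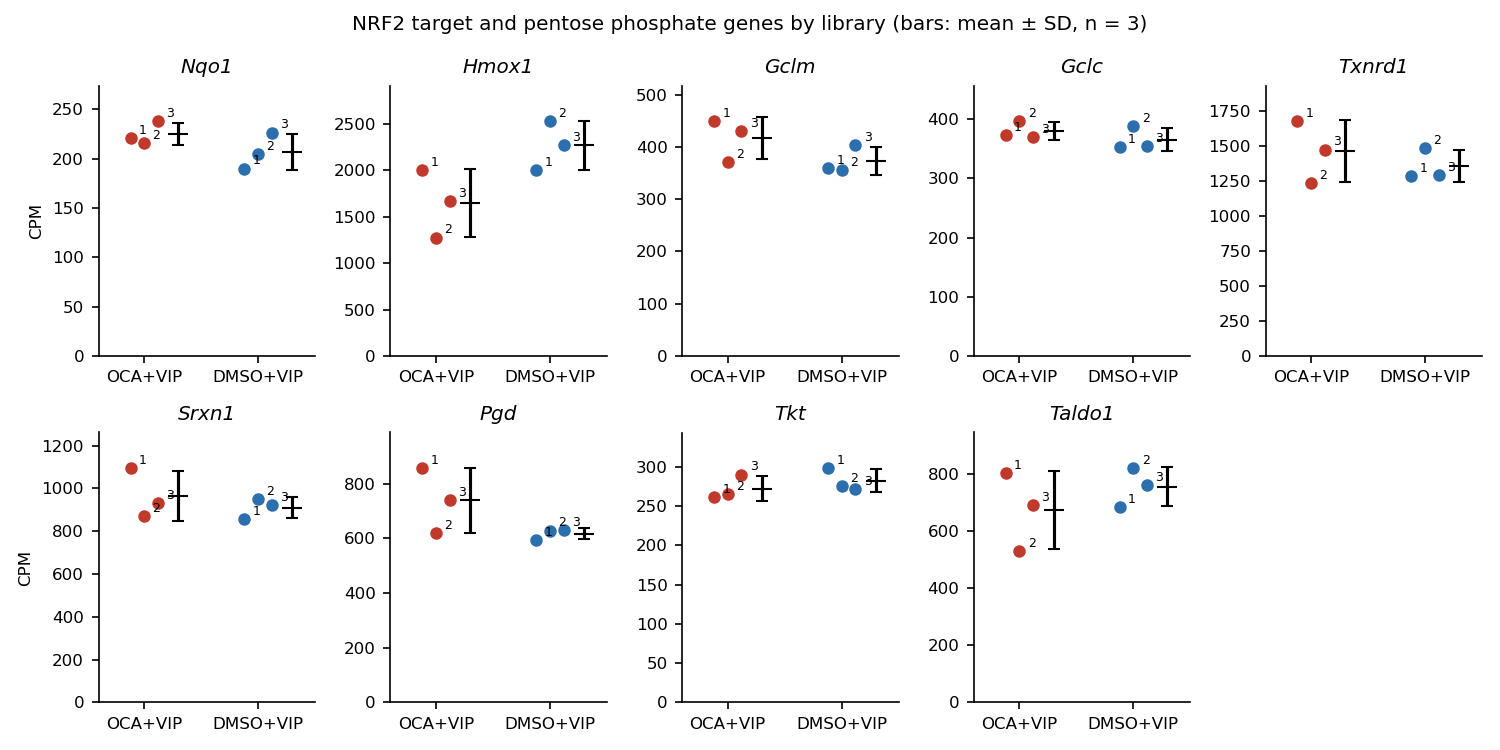
CPM of the 9 genes in each library (points, numbered by library), with OCA+VIP in red on the left and DMSO+VIP in blue on the right of each panel and the mean ± SD (n = 3) beside them. The groups overlap for every gene, and Hmox1, Taldo1, Pgd and Txnrd1 spread most within OCA+VIP relative to their level, with library 2 lowest.

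Pgd, encoding 6-phosphogluconate dehydrogenase, an enzyme of the oxidative branch that yields NADPH (chromosome 4, 149149991 to 149166705), had 859, 620.0 and 739 CPM in OCA+VIP libraries 1 to 3, against 595, 629 and 629.9 CPM in DMSO+VIP libraries 1 to 3. OCA+VIP libraries 1 and 3 lay above all vehicle libraries and OCA+VIP library 2 within their range. The groups overlapped and Pgd was not called (log2 fold change 0.25, 95% interval -0.04 to 0.55, edgeR adjusted p = 0.27). Without OCA+VIP library 2 it did, with a log2 fold change of 0.40 (edgeR adjusted p = 0.0072). The enzymes of the non-oxidative branch, which interconvert sugar phosphates without making NADPH, were fitted lower. Tkt, transketolase (chromosome 14, 30549131 to 30574726), had 262, 265 and 290.2 CPM in OCA+VIP, against 299, 276 and 272 CPM in DMSO+VIP, with overlapping groups (log2 fold change -0.07, 95% interval -0.31 to 0.18, edgeR adjusted p = 0.78). Taldo1, transaldolase (chromosome 7, 141392160 to 141402976), had 802, 530.3 and 689 CPM in OCA+VIP, against 684, 821 and 761 CPM in DMSO+VIP. Its groups overlapped too (log2 fold change -0.17, 95% interval -0.49 to 0.15, edgeR adjusted p = 0.53), and without OCA+VIP library 2 the fitted change was 0.01.

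Hmox1 (chromosome 8, 75093618 to 75100593) had 2007, 1276 and 1671 CPM in OCA+VIP libraries 1 to 3, against 2004, 2532 and 2276 CPM in DMSO+VIP libraries 1 to 3. The libraries numbered 1 had the same level in both groups, and only OCA+VIP libraries 2 and 3 lay below the vehicle range. The fitted log2 fold change was -0.47 (SE 0.17, 95% interval -0.81 to -0.12), and it missed the threshold (edgeR adjusted p = 0.071). Hmox1 was past the threshold, and lower, with library-size scaling (adjusted p = 0.025), upper-quartile scaling (0.047), no filter (0.0059), limma-voom (0.025) and cyclic loess scaling (3.7e-04), and without OCA+VIP library 1 (0.012). The order of Hmox1 CPM over the 6 libraries was exactly the reverse of the order of their column totals. With the log2 column total as a covariate, which like cyclic loess scaling was chosen after the data were seen, the log2 fold change was 0.04 (edgeR adjusted p = 0.81).

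**Figure D2:**
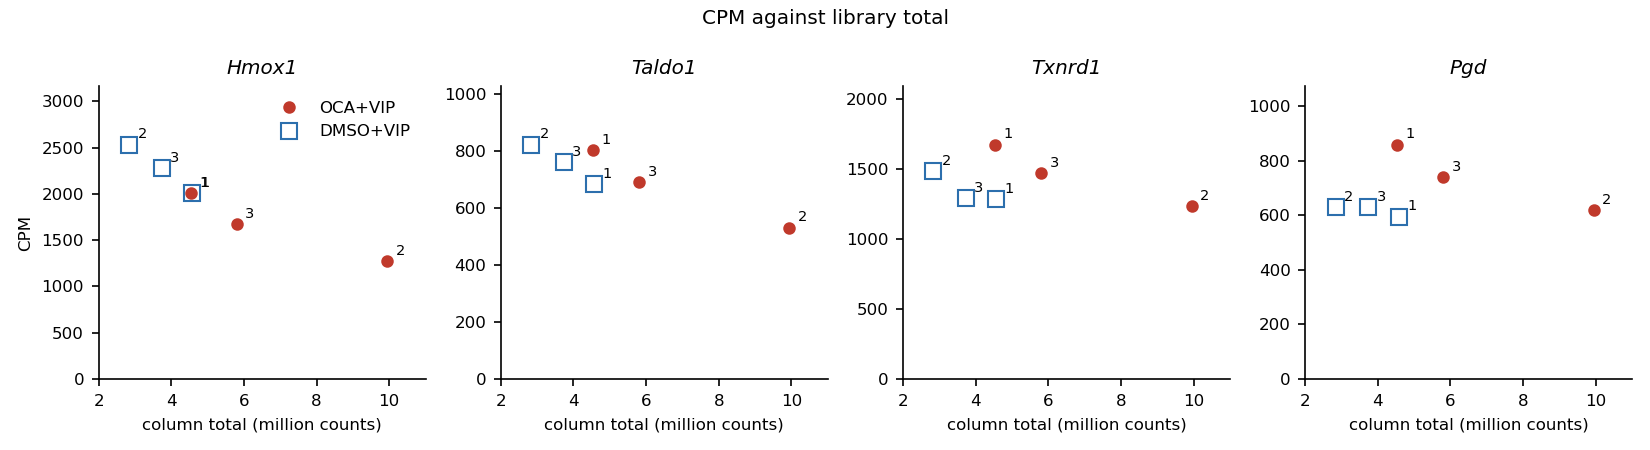
CPM of Hmox1, Taldo1, Txnrd1 and Pgd (vertical axes, from 0) against the column total (counts), with OCA+VIP libraries as filled circles and DMSO+VIP libraries as open squares, numbered by library. Hmox1 is lower in each deeper library whatever the group, and at near-equal totals the libraries numbered 1 have 2007 CPM in OCA+VIP and 2004 CPM in DMSO+VIP.

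Other densely counted genes shared this order. Hmox1 averaged 5.98 counts per exon base over the 6 libraries. Of the 74 tested genes with more than 2 counts per exon base, 15 (20.3%) had a CPM order exactly the reverse of the totals, against 0.292% of all tested genes, and Ftl1, Fth1 and Sqstm1 were among them. Within OCA+VIP, the CPM of library 2 relative to the mean of libraries 1 and 3 had a median log2 ratio of -0.50 over the 74 genes, -0.34 over the 294 genes with 1 to 2 counts per base, and 0.25 over the 6476 genes under 0.1. For Hmox1 this ratio was -0.53, for Taldo1 -0.49, for Txnrd1 -0.35, for Pgd -0.37 and for Srxn1 -0.22. Between the groups, OCA+VIP over DMSO+VIP, the median log2 ratio of CPM was -0.33 over the 74 genes. In the less densely counted classes it ran from -0.08 to 0.08. Within the densest class, Hmox1 (-0.46) lay below the median, and Taldo1 (-0.17) and Txnrd1 (0.11) lay above it. Between libraries 1 of the groups, whose totals are near-equal, the median of the 74 genes was 0.03. It was 0.10 over the class of Pgd, Srxn1 and Gclm (1 to 2 counts per base). Over the class of Nqo1, Gclc and Tkt (0.3 to 1) it was 0.11, and over the 6476 genes under 0.1 it was -0.25. In that pair, OCA+VIP over DMSO+VIP, the log2 ratio was 0.53 for Pgd, 0.38 for Txnrd1, 0.36 for Srxn1, 0.32 for Gclm, 0.23 for Taldo1, 0.22 for Nqo1, 0.08 for Gclc, 0.00 for Hmox1 and -0.19 for Tkt, with 1 library a group and no test.

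**Figure D3:**
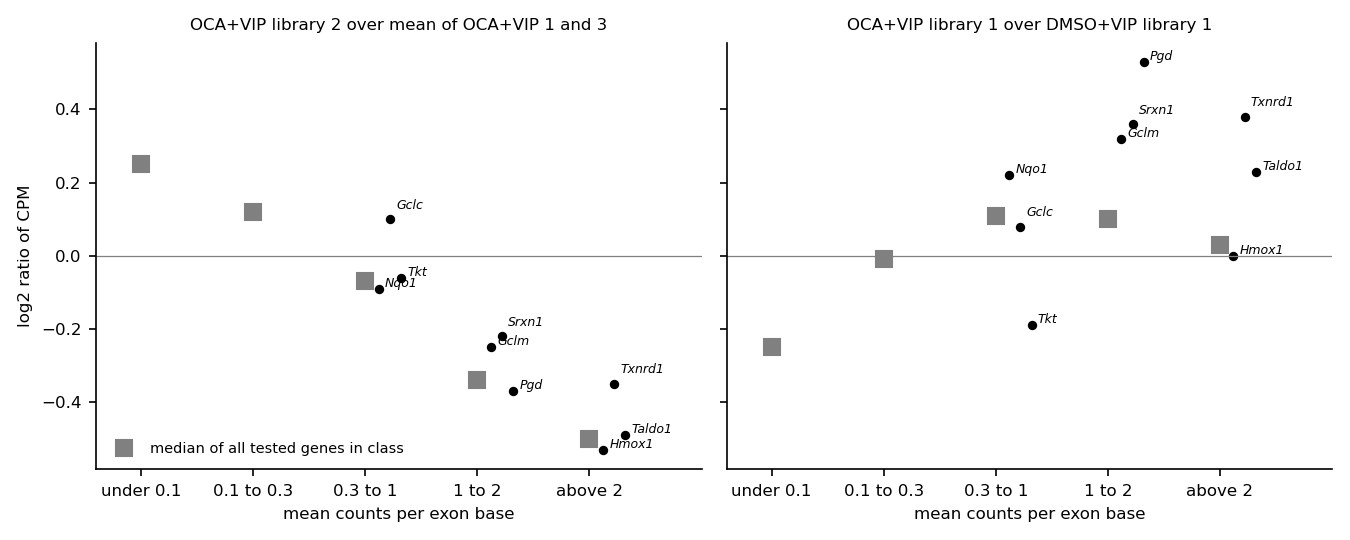
Log2 ratio of CPM between libraries (vertical axes) by mean counts per exon base (horizontal axes), as the median of all tested genes in each class (grey squares) and for the 9 genes (points). Within OCA+VIP (left) the ratio of library 2 to libraries 1 and 3 drops to -0.50 in the densest class, where Hmox1, Taldo1 and Txnrd1 lie, while between libraries of near-equal totals (right) that class has a median of 0.03.

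Txnrd1 encodes cytosolic thioredoxin reductase, a selenoprotein that recharges thioredoxin with NADPH (chromosome 10, 82859206 to 82897724). It had 1676, 1235 and 1474 CPM in OCA+VIP, against 1285, 1485.5 and 1293 CPM in DMSO+VIP, with the highest and the lowest value both in OCA+VIP. Its log2 fold change was 0.10 (95% interval -0.20 to 0.41, edgeR adjusted p = 0.72). Srxn1, encoding sulfiredoxin, which repairs overoxidised peroxiredoxins (chromosome 2, 152105524 to 152111376), had 1097, 872 and 931 CPM in OCA+VIP, against 856, 949 and 924 CPM in DMSO+VIP. Only OCA+VIP library 1 lay above the vehicle range, and the log2 fold change was 0.08 (95% interval -0.21 to 0.36, edgeR adjusted p = 0.78). Both fitted changes were below 0 without OCA+VIP library 1, at -0.05 and -0.06.

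Gclm and Gclc encode the modifier and catalytic subunits of glutamate-cysteine ligase, the rate-limiting enzyme of glutathione synthesis. Gclm (chromosome 3, 122245557 to 122267215) had 449, 371 and 431 CPM in OCA+VIP, against 359.7, 356 and 404 CPM in DMSO+VIP. Its OCA+VIP library 2 lay within the vehicle range and the other OCA+VIP libraries above it (log2 fold change 0.15, 95% interval -0.12 to 0.42, edgeR adjusted p = 0.51). Gclc (chromosome 9, 77754535 to 77794489) had 373, 397 and 369 CPM in OCA+VIP, against 354, 388 and 355 CPM in DMSO+VIP. OCA+VIP library 2 lay above the vehicle range and the others within it, and the log2 fold change was 0.04 (95% interval -0.20 to 0.28, edgeR adjusted p = 0.88). Nqo1, the quinone reductase often used as a readout of NRF2 activity (chromosome 8, 107388225 to 107403205), had 221, 216 and 238 CPM in OCA+VIP, against 190.0, 205 and 226 CPM in DMSO+VIP. Its OCA+VIP values lay in the upper part of and just above the vehicle range, with a log2 fold change of 0.10 (95% interval -0.15 to 0.36, edgeR adjusted p = 0.65). Nqo1 and Gclc, with 0.74 and 0.55 counts per exon base, are outside the densest classes, and their intervals end at 1.28-fold and 1.22-fold higher.

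With the log2 column total as a covariate, 5 of the 9 genes were called higher and 0 lower, where 6.2% of all tested genes were higher and 5.08% lower. The 5 were Txnrd1 (log2 fold change 0.47, edgeR adjusted p = 1.3e-04), Pgd (0.58, 1.7e-04), Srxn1 (0.36, 0.0064), Gclm (0.37, 0.034) and Taldo1 (0.28, 0.040). With cyclic loess scaling in limma-voom, Pgd (0.26, adjusted p = 0.024) and Txnrd1 (0.22, 0.013) were called higher and Hmox1 (-0.32) lower, where 5.91% of all tested genes were higher and 7.4% lower. The covariate leaves 3 residual degrees of freedom and is tied to the groups, since OCA+VIP holds the 2 deepest libraries and DMSO+VIP the 2 shallowest.

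**Figure D4:**
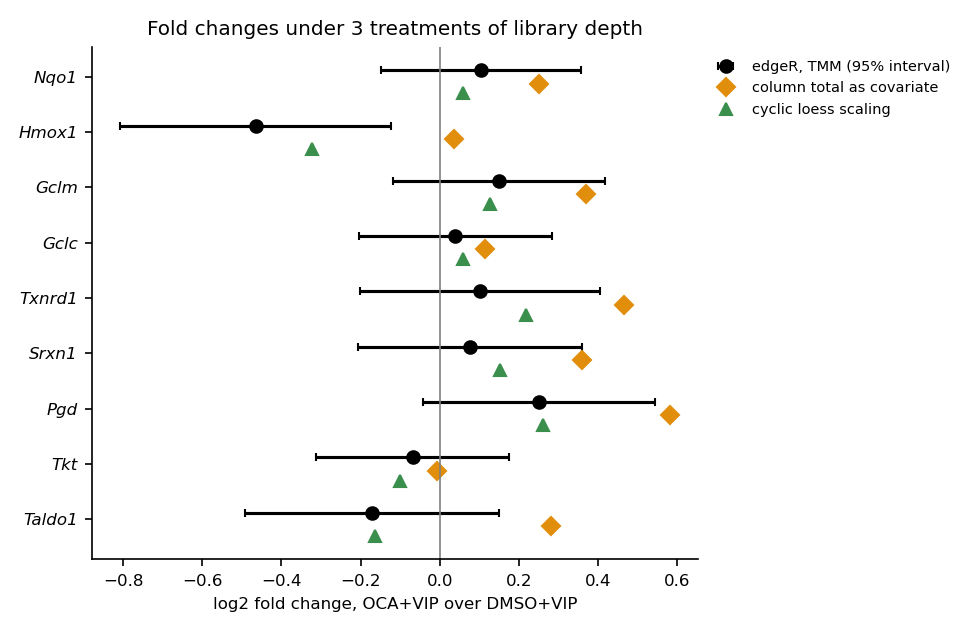
Log2 fold change of OCA+VIP over DMSO+VIP for the 9 genes from edgeR with TMM scaling (black, with 95% interval), with the log2 column total as a covariate (diamonds) and with cyclic loess scaling (triangles). Hmox1 runs from -0.47 to 0.04, and Taldo1 from -0.17 to 0.28.

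Among the regulators of NRF2, Nfe2l2 itself did not pass the test, with 645, 609 and 635 CPM in OCA+VIP, against 633, 651 and 670.2 CPM in DMSO+VIP (log2 fold change -0.06, edgeR adjusted p = 0.80). Of 11 tested regulators, 3 were called higher, 1 lower and 7 neither, beside 5.72% higher and 6.04% lower over all tested genes, with a median log2 fold change of -0.06. Unadjusted edgeR p was under 0.05, in either direction, for 7 of the 11, beside 26.0% of all tested genes. Bach1, the repressor at antioxidant response elements and of Hmox1 in particular, rose to 199 ± 30.4 CPM in OCA+VIP, against 142 ± 9.90 CPM in DMSO+VIP (log2 fold change 0.47, edgeR adjusted p = 0.015). Cul3, the ubiquitin ligase scaffold, had 299.7 ± 14.0 CPM and 222 ± 19.6 CPM (0.42, adjusted p = 0.027), and the small MAF gene Maff had 522 ± 87.0 CPM and 381 ± 33.7 CPM (0.45, adjusted p = 0.048). Nfe2l1, the NRF2 relative that drives proteasome genes, fell to 254 ± 35.6 CPM in OCA+VIP, against 342 ± 33.5 CPM in DMSO+VIP (-0.45, adjusted p = 0.020). Bach1 was not called without OCA+VIP library 3 or DMSO+VIP library 1 or 2 (edgeR adjusted p up to 0.075) or with the column total as a covariate (0.31, 0.22). Cul3 and Maff were not called without any 1 library but OCA+VIP library 2 (adjusted p up to 0.12 and 0.24), and Nfe2l1 was not called without any 1 but OCA+VIP library 2 or DMSO+VIP library 3 (up to 0.11). With the replicate block, Cul3 and Maff were not called (edgeR adjusted p = 0.057 and 0.12). Keap1 (0.30, adjusted p = 0.19) and the other small MAF genes Mafk (0.32, 0.13) and Mafg (-0.15, 0.48) did not pass. Mafk was called higher with the column total as a covariate (0.60, edgeR adjusted p = 8.6e-05) and with cyclic loess scaling in limma-voom (0.37, 8.7e-04). Sqstm1 was fitted lower and not called (-0.38, adjusted p = 0.16). It was called lower with cyclic loess scaling (-0.21, 0.014) and without OCA+VIP library 1 (0.031), and was fitted higher with the column total as a covariate (0.16, 0.11). Rbx1 and Bach2 did not pass either (adjusted p = 0.43 and 0.75), and Nfe2l3 had too few counts to test.

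Of 24 other NRF2 targets tested, 19 were not called, 3 were called higher and 2 lower, beside 5.72% and 6.04% of all tested genes, with a median log2 fold change of 0.20. Unadjusted edgeR p was under 0.05, in either direction, for 14 of the 24, beside 26.0% of all tested genes. Osgin1, an oxidative stress response gene that is also a known FXR target, had 469, 373 and 408 CPM in OCA+VIP, against 147, 176 and 139 CPM in DMSO+VIP (log2 fold change 1.43, edgeR adjusted p = 7.1e-07). Me1, encoding cytosolic malic enzyme, another supplier of NADPH, had 223, 199 and 199 CPM in OCA+VIP, against 116, 138 and 115 CPM in DMSO+VIP (0.74, adjusted p = 5.6e-04). The third that rose was Ptgr1, a reductase of leukotrienes and lipid aldehydes, chosen after its values were seen (1.16, adjusted p = 0.0045), which was not called without OCA+VIP library 3 (1.01, 0.054). Ugdh, which makes UDP-glucuronate, had 160.3, 176 and 181 CPM in OCA+VIP, against 362, 326 and 336 CPM in DMSO+VIP, a level 0.50 times that of the vehicle (edgeR adjusted p = 4.8e-06). Ephx1, microsomal epoxide hydrolase, had 71.9, 56.1 and 67.1 CPM in OCA+VIP, against 139.9, 154 and 137 CPM in DMSO+VIP (-1.16, adjusted p = 1.5e-05). Osgin1, Me1, Ugdh and Ephx1 kept their calls when any 1 library was left out. The summed hepatocyte markers, like the genes that rose, were higher in all OCA+VIP libraries than in any DMSO+VIP library. The part of hepatocyte RNA in these changes was not tested.

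**Figure D5:**
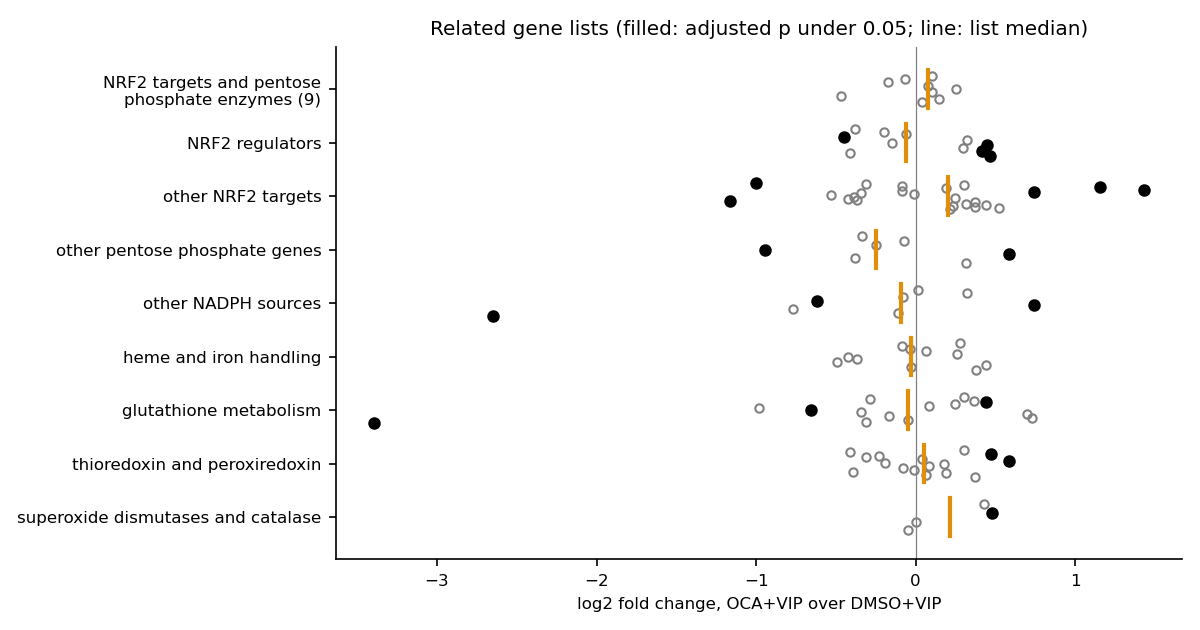
Log2 fold change of OCA+VIP over DMSO+VIP for every tested gene of the 9 and of 8 related lists (filled circles, adjusted p under 0.05 by edgeR; open circles, not called; vertical lines, list medians). All of the related lists but heme and iron hold called genes, and each list has genes on both sides of 0.

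Among other tested genes of the pentose phosphate pathway and its ribose outlet, 1 of 7 was called higher, 1 lower and 5 neither. Over all tested genes, 5.72% were called higher and 6.04% lower, and the list's median was -0.25. The calls in the list were the isoforms of phosphoribosyl pyrophosphate synthetase, which turns the pathway's ribose 5-phosphate into a nucleotide precursor. Prps1 had 105 ± 5.99 CPM in OCA+VIP and 69.3 ± 21.2 CPM in DMSO+VIP (0.58, edgeR adjusted p = 0.036), and Prps2 had 20.4 ± 5.85 and 38.9 ± 5.85 CPM (-0.95, adjusted p = 0.014). Prps1 was not called without library 1 or 3 of either group (adjusted p up to 0.19), nor Prps2 without library 3 of either group (up to 0.091). H6pd, a hexose phosphate dehydrogenase of the endoplasmic reticulum (0.31, adjusted p = 0.11), and Pgls, the lactonase of the oxidative branch (-0.38, 0.36), did not pass. Of 8 other NADPH sources, 1 was called higher and 2 lower, beside 5.72% and 6.04% of all tested genes, with a median of -0.09. Me1 rose, and Mthfd1 (-0.62, adjusted p = 0.0073) and Aldh1l2 (-2.65, adjusted p = 0.0041), cytosolic and mitochondrial folate enzymes, fell. Mthfd1 was not called without OCA+VIP library 1 (adjusted p = 0.056). Aldh1l2 had only 6, 27.5 and 12 counts in OCA+VIP libraries 1 to 3, against 73, 24 and 55.5 counts in DMSO+VIP. With counts divided by 6, 1 gene of this list was called lower. Idh2, mitochondrial isocitrate dehydrogenase, did not pass (-0.77, adjusted p = 0.41).

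Of 11 heme and iron genes, 0 were called higher and 0 lower by edgeR, beside 5.72% and 6.04% of all tested genes. The list's median was -0.03, and DESeq2 and limma-voom likewise called 0 of its genes. Those of smallest p were Fech, which inserts iron in the last step of heme synthesis (-0.49, edgeR adjusted p = 0.059), Blvrb, a biliverdin reductase (0.44, 0.083), Alas1, which starts heme synthesis (0.38, 0.089), and Ftl1 (-0.42, 0.12). Unadjusted p was under 0.05 for 6 of the 11, beside 26.0% of all tested genes. With the column total as a covariate, Blvrb (0.93, 1.3e-05) and Alas1 (0.70, 0.0056) were called higher. With cyclic loess scaling, the ferritin genes Ftl1 (-0.35, 0.0025) and Fth1 (-0.30, 0.010), the latter chosen after its values were seen, were called lower instead. Called lower were also 1 gene of this list with upper-quartile scaling, 3 with no filter, 2 without OCA+VIP library 1 and 1 without DMSO+VIP library 3. Called higher were 1 gene with library-size scaling, 1 with no filter and 2 without OCA+VIP library 2. Of 15 glutathione genes, 1 was called higher, 2 lower and 12 neither, beside 5.72% higher and 6.04% lower over all tested genes. The list's median was -0.05, and unadjusted edgeR p was under 0.05 for 7 of the 15, beside 26.0% of all tested genes. Gss, glutathione synthetase, the step after glutamate-cysteine ligase, rose to 137 ± 9.29 CPM in OCA+VIP, against 99.98 ± 5.29 CPM in DMSO+VIP (0.44, edgeR adjusted p = 0.033). Gss was not called without any 1 library but OCA+VIP library 2 (adjusted p up to 0.17). Nor was it called with upper-quartile scaling, with cyclic loess scaling in limma-voom (0.35, adjusted p = 0.084) or with the replicate block (edgeR adjusted p = 0.0502). Gpx4, the lipid peroxidase that restrains ferroptosis, fell to 66.8 ± 1.75 CPM in OCA+VIP, against 104 ± 3.72 CPM in DMSO+VIP (-0.65, adjusted p = 0.0038), and was not called with the column total as a covariate (-0.50, 0.13). Chac1, which degrades glutathione, also fell (-3.39, adjusted p = 8.1e-04), and Gpx1 did not pass (-0.34, 0.074). Chac1 had only 6.5, 15 and 6.5 counts in OCA+VIP libraries 1 to 3, against 54, 31 and 68 counts in DMSO+VIP. Its fold change thus rests on a level near the floor in OCA+VIP.

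In the thioredoxin and peroxiredoxin list, 2 of 16 were called higher, 0 lower and 14 neither, beside 5.72% and 6.04% of all tested genes. The list's median was 0.05. Sesn2, a stress-induced sestrin, had 305 ± 37.7 CPM in OCA+VIP and 202 ± 11.9 CPM in DMSO+VIP (0.58, edgeR adjusted p = 0.0051). Txnip, the thioredoxin inhibitor, had 307 ± 16.7 and 219 ± 28.3 CPM (0.48, adjusted p = 0.015), and it was not called without OCA+VIP library 1 or DMSO+VIP library 2 or 3 (up to 0.097). An antisense gene shares 19.4% of the exon bases of Txnip, and other named genes overlap too. A gene on the opposite strand shares 26.49% of the exon bases of Ftl1, 17.28% of Sqstm1, 14.07% of Aldh1l2 and 4.71% of Gclm. Opposite-strand genes also share 10.87% of the exon bases of Keap1, 7.53% of Alas1 and 5.4% of Bach2. For Gss and Prdx2 such shares are up to 6.68% and 5.8%. On the same strand a gene shares 20.58% of those of Pgls, 8.13% of those of Ftl1 and 3.88% of those of Gclm. Overlaps of other named genes, at most 4.33% (Mafk), are left out. Prdx2 and Txn1 did not pass (-0.39, adjusted p = 0.096, and -0.31, 0.24). Of 4 genes for superoxide dismutases and catalase, 1 was called higher and 0 lower, beside the same shares of all tested genes. Sod2, the mitochondrial manganese enzyme, rose to 142 ± 7.81 CPM in OCA+VIP, against 101 ± 5.22 CPM in DMSO+VIP (0.48, adjusted p = 0.020). Sod2 was not called without OCA+VIP library 1 or 3 or DMSO+VIP library 1 (up to 0.10). Sod1, Sod3 and Cat did not pass (0.00, 0.43 and -0.04, adjusted p = 0.99, 0.43 and 0.88), and Sod1 did with the column total as a covariate (0.42, 0.025).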

How the data were processed

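The authors deposited 1 table of expected counts over exons, unnormalised and in steps of 0.5, in the layout HOMER writes. The mm10 build, STAR, HOMER and DESeq2 are named in the submitters' processing notes, and strand use and duplicate removal are not given in the sources used here. Column names give the treatment, but their numbers could not be tied to the lettered titles. Of counts up to 30, 48.2% to 52.4% lay within 0.5 of a multiple of 6 in 5 libraries and 34.2% in OCA+VIP library 2, and how these steps arose was not tested.

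Deposited counts were rounded to whole numbers and tested in edgeR 4.0.16 (R 4.3.3, limma 3.58.1). This used TMM scaling, filterByExpr (minimum count 10, total 15), a two-sided quasi-likelihood F test and Benjamini-Hochberg adjustment over 11286 genes at 0.05, with 4 residual degrees of freedom. The script was tested on simulated data. Standard errors were taken from the F statistic, and intervals are 95%. CPM use the column total, without TMM, and the exon length column gave CPM per kb. Alternatives included DESeq2 1.42.0, limma-voom, other scalings and filters, counts divided by 6, thresholds of 0.01 and 0.1, a replicate block and leaving out each of the 6 libraries.

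The genes and lists were chosen with earlier results of these data known, and 1 further gene of the set is not reported here. Named from each related list are the 4 genes lowest in p among those averaging 1 CPM or more, and all tested NRF2 regulators. Ptgr1 and Fth1 were named outside this rule, after their values were seen. Exon overlaps come from GENCODE M21 and promoters from RefSeq. Same-numbered libraries did not deviate together (correlations of -0.04, -0.05 and 0.03).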

Additional observations from a re-analysis of the deposited data

How the results depend on the processing

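Of 153 fold changes of the 9 genes under alternatives, 135 kept their direction and their side of the threshold. The number of them called higher was 2 with cyclic loess scaling and 5 with the column total as a covariate, and on leaving out libraries it was 0 to 1 (Pgd, without OCA+VIP library 2). Called lower was 1 gene, Hmox1, with library-size scaling, upper-quartile scaling, no filter, limma-voom, cyclic loess scaling and a threshold of 0.1, and 0 to 1 on leaving out libraries. Directions turned with the column total as a covariate for Hmox1 (0.035) and Taldo1 (0.28). On leaving out libraries the log2 fold change ran from -0.045 to 0.24 for Txnrd1, -0.061 to 0.18 for Srxn1 (both below 0 without OCA+VIP library 1) and -0.35 to 0.0067 for Taldo1 (above 0 without OCA+VIP library 2). Over all tested genes, 310 to 745 were called higher and 395 to 733 lower on leaving out libraries, and 303 and 345 at a threshold of 0.01. Of the 87 tested genes in the related lists, 11 were higher and 8 lower, beside 5.72% and 6.04% of all tested genes. The counts in these lists were 4 to 17 and 6 to 10 on leaving out libraries. They were 4 higher at 0.01, 13 lower at 0.1 and 15 lower with cyclic loess scaling. Libraries share only a number, and with the replicate block 549 genes were higher and 569 lower, and 0 of the 9 genes were called either way. The cause of these changes was not tested. Precision is limited by 3 libraries a group.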
